A study of Homo sapiens with 18 samples.

Results

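This report concerns the antagonist RU486 (mifepristone) given alone to H295R cells, a human adrenocortical carcinoma line that produces steroid hormones. The comparison takes 3 arrays of RU486-treated cells and 3 arrays of vehicle-treated cells, chosen by the treatment and line in the sample titles. These are 6 of the 17 arrays with values in a series that describes 18. All 6 came from cells with an empty pcDNA4 vector, integrated stably and not inducible, called control cells below. The RU486 group received 100 nM for 6 h, and the vehicle group received ethanol for 6 h. The other groups of the series used below were control cells given dexamethasone at 100 nM for 6 h (3 arrays) and cells with the same vector carrying GRα, the isoform of the glucocorticoid receptor that binds ligand. The GRα cells had been given RU486 (2 arrays with values), dexamethasone (3 arrays) or vehicle (3 arrays) in the same way. Cells of every group were grown to 70% confluence and kept without serum for 24 h before treatment. The labels do not say how many clones make up a stable line. They call the arrays biological replicates, treated in triplicate, without saying that the cultures were separate. P-values here therefore reflect only how far these arrays scatter, and part of that scatter may be technical.

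The glucocorticoid receptor, encoded by NR3C1, rests in the cytoplasm with heat shock protein chaperones until a steroid binds it. It then moves to the nucleus, binds DNA at glucocorticoid response elements and raises or lowers the transcription of nearby genes. Dexamethasone is a synthetic agonist of this receptor. RU486 binds the same pocket, carries a bulky dimethylaminophenyl group on its steroid core that dexamethasone lacks, and acts in many cells as an antagonist and in some as a partial agonist. It is also an antagonist of the progesterone receptor and a ligand of the xenobiotic receptor PXR. The adrenal cortex, from which H295R cells derive, is the source of cortisol, the natural ligand of the receptor. The question of the comparison was whether RU486 by itself lifts or lowers receptor targets in serum-starved steroid-producing cells.

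RNA was measured on whole-transcript arrays, and all levels below are the deposited log2 values, in which a difference of 1 is a doubling. The 6 arrays resembled each other closely. Over 18417 genes, the RU486 arrays correlated with each other at 0.9969 to 0.9971, the vehicle arrays at 0.9957 to 0.9967, and RU486 with vehicle arrays at 0.9957 to 0.9973. The median SD of a gene over the 3 arrays was 0.071 in RU486 cells and 0.081 in vehicle cells, against 0.119 in the vehicle-treated GRα cells that share the estimate of spread in the fit. The first principal component of the 6 arrays, with 29% of the variance, did not divide them by treatment. Its scores were 4.19, −5.48 and 0.73 for RU486 replicates A, B and C and 12.26, −9.79 and −1.91 for vehicle replicates A, B and C. In both groups replicate A scored highest, C next and B lowest. The second component, with 24.4%, had scores of −2.59, −10.12 and −2.94 for the RU486 replicates and 4.91, 10.42 and 0.31 for the vehicle replicates, so its scores did not overlap between the treatments. The third, with 17.3%, had −8.24 for RU486 replicate C and −6.27 for vehicle replicate C. The other arrays scored 1.06 to 6.89 on it. Marker lists were averaged to compare RU486 with vehicle, since the levels of different probe sets are not comparable with each other. The mean level of 9 adrenocortical markers was 8.44 to 8.64 in RU486 arrays and 8.58 to 8.64 in vehicle arrays. The groups overlapped for these markers, of which 1 lay above and 8 below their vehicle level, with a median difference of −0.065. Chromaffin cell markers averaged 5.72 to 5.76 with RU486 and 5.68 to 5.72 with vehicle. Fibroblast markers averaged 5.34 to 5.44 with RU486 and 5.34 to 5.41 with vehicle. Endothelial markers averaged 5.33 to 5.50 with RU486 and 5.22 to 5.40 with vehicle. These and the leukocyte markers, at 5.21 to 5.30 with RU486 and 5.16 to 5.27 with vehicle, overlapped between the groups or lay within 0.1 of each other.

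RU486 changed no gene past the threshold. At a Benjamini-Hochberg adjusted p under 0.05, limma called 0 of 18417 genes (0%), with 0 higher and 0 lower, and the lowest adjusted p of any gene was 0.999. At an unadjusted p under 0.05 there were 621 genes (3.37%), of which 259 (1.41%) were higher and 362 (1.97%) lower with RU486. An even spread of p-values would put 921 genes there. The differences between RU486 and vehicle were centred on 0, with a median of 0.001 and a middle 50% from −0.057 to 0.056, and 50.3% of genes lay above 0. The largest positive difference was 0.62 and the largest negative one −0.40. In 2253 genes (12.2%) the 3 RU486 arrays did not overlap the 3 vehicle arrays, with RU486 higher in 960 (5.21%) and lower in 1293 (7.02%).

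**Figure D1:**
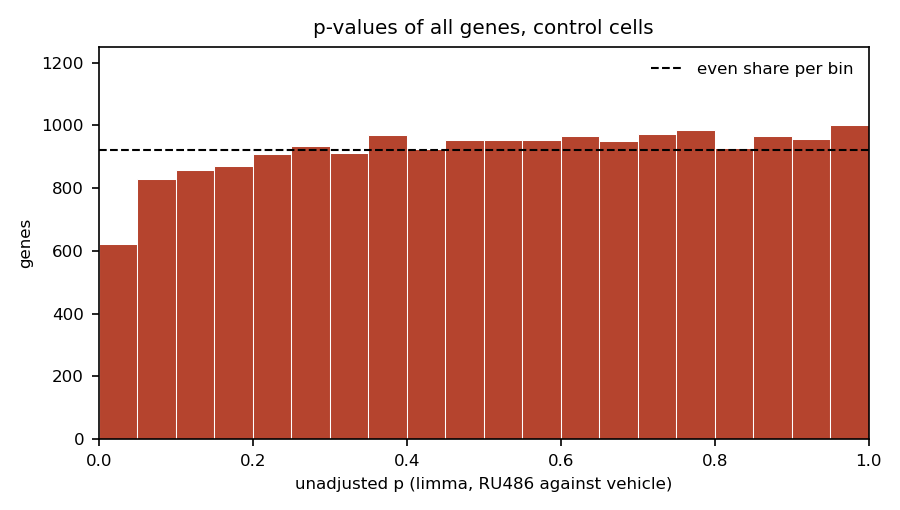
Histogram of the unadjusted limma p-values of 18417 genes for RU486 against vehicle in control cells (horizontal axis, p; vertical axis, genes per bin; dashed line, an even share of 920.9 genes per bin). The lowest bin holds 621 genes, below the even share, and the highest bin holds 1001.

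The arrays set limits on how large an unseen response could be. The median standard error of a gene's difference was 0.085, from 11 residual and 5.89 prior degrees of freedom. The 95% interval of the difference lay within ±0.25 (1.19-fold either way) for 9809 genes (53.3%). It lay within ±0.5 (1.41-fold) for 18145 genes (98.5%) and within ±0.585 (1.5-fold) for 18326 genes (99.5%). These intervals are for each gene alone and are not adjusted for the number of genes. The absence of calls does not show that RU486 and vehicle act alike.

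No gene of a steroid receptor was called between RU486 and vehicle, and of the 5 measured none had an unadjusted p under 0.05 in limma. NR3C1 had log2 values of 7.46, 7.40 and 7.31 with RU486 and 7.41, 7.28 and 7.38 with vehicle, a difference of 0.03 ± 0.07 (SE, n = 3 each) with a 95% interval from −0.11 to 0.17. The groups overlapped. PGR, the progesterone receptor and the other high-affinity receptor of RU486, had 7.10, 7.12 and 7.08 with RU486 and 7.15, 7.11 and 7.15 with vehicle, a difference of −0.04 (−0.18 to 0.10). NR3C2, the mineralocorticoid receptor, had 6.73, 6.59 and 6.71 with RU486 and 6.79, 6.82 and 6.74 with vehicle. Its RU486 arrays all lay below the vehicle arrays, by 0.01 at the nearest pair, and the difference of −0.11 ± 0.10 had an unadjusted p of 0.3 in limma. The estrogen receptors ESR1 and ESR2 differed by −0.01 and 0.00. Of 12 chaperones and cochaperones of these receptors, 6 lay above and 6 below 0, with 0 calls by limma and 2 at an unadjusted p under 0.05. Both were lower with RU486: CDC37, a cochaperone of HSP90, had 9.46, 9.46 and 9.45 with RU486 and 9.62, 9.68 and 9.62 with vehicle, and STUB1, a ubiquitin ligase bound to chaperones, had 8.37, 8.21 and 8.24 with RU486 and 8.45, 8.49 and 8.38 with vehicle. In the chaperone list the arrays did not overlap for 3 members higher with RU486 (25%, against 5.21% of all genes). They did not overlap for 2 members lower with RU486 (16.7%, against 7.02%).

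The genes of this and the next paragraph, which had higher levels with dexamethasone than with vehicle in these cells, stayed near their vehicle level under RU486. They are not a ranking by the size of that rise. CES1, described further below, stood above vehicle with both ligands. ZBTB16, a zinc finger transcription factor and a sensitive glucocorticoid target in many tissues, had log2 values of 6.03, 5.99 and 6.02 with RU486, 7.59, 7.60 and 7.66 with dexamethasone and 5.99, 6.32 and 6.28 with vehicle. All 3 dexamethasone arrays stood far above the other 6, while the RU486 arrays lay at the level of the lowest vehicle array. The difference between RU486 and vehicle was −0.19 ± 0.09 (95% interval −0.36 to −0.01), with an unadjusted p of 0.0441 and an adjusted p of 0.999 in limma. SLC26A2, a sulfate transporter that supplies the sulfation of steroids and matrix, had 7.59, 7.53 and 7.58 with RU486, 8.89, 8.79 and 8.68 with dexamethasone and 7.56, 7.37 and 7.60 with vehicle. RU486 and vehicle arrays overlapped, with a difference of 0.06 ± 0.07 (−0.09 to 0.20). PER1, a core circadian clock repressor with glucocorticoid response elements near its promoter, had 6.87, 6.99 and 6.99 with RU486, 7.82, 7.93 and 7.74 with dexamethasone and 6.87, 6.84 and 6.95 with vehicle. Its difference between RU486 and vehicle was 0.07 ± 0.07 (−0.08 to 0.21), and the groups overlapped.

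ST3GAL5, the synthase of the ganglioside GM3, had 8.35, 8.22 and 8.60 with RU486, 9.45, 9.24 and 9.33 with dexamethasone and 8.67, 8.57 and 8.52 with vehicle. RU486 replicates A and B lay below every vehicle array and replicate C among them, and the difference was −0.20 ± 0.09 (−0.40 to 0.00). PDCD4, an inhibitor of translation initiation, had 9.71, 9.64 and 9.69 with RU486, 10.46, 10.31 and 10.38 with dexamethasone and 9.68, 9.56 and 9.64 with vehicle. The RU486 and vehicle arrays of PDCD4 overlapped and differed by 0.05 (−0.10 to 0.21). IL1RAP, the shared accessory chain of interleukin-1 receptors, had 6.97, 6.73 and 6.77 with RU486, 7.64, 7.61 and 7.59 with dexamethasone and 7.01, 6.78 and 6.89 with vehicle. ERRFI1, a feedback inhibitor of the EGF receptor, had 7.77, 7.65 and 7.62 with RU486, 8.34, 8.25 and 8.21 with dexamethasone and 7.82, 7.82 and 7.77 with vehicle. The RU486 arrays of IL1RAP overlapped its vehicle arrays and those of ERRFI1 met them at 7.77, with differences of −0.07 (−0.26 to 0.12) for IL1RAP and −0.12 (−0.25 to 0.01) for ERRFI1. TSC22D3, which encodes the anti-inflammatory protein GILZ, had 7.94, 7.82 and 7.89 with RU486, 8.20, 8.28 and 8.36 with dexamethasone and 7.98, 8.12 and 7.99 with vehicle. Its RU486 arrays lay below all vehicle arrays, with a difference of −0.15 ± 0.11 and a 95% interval that held 0.

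OR7A5, an olfactory receptor gene at a low level on these arrays, was among the 10 genes raised most by dexamethasone in GRα cells, as was its neighbour OR7C1. RefSeq (GRCh38.p14) places both starts in the same promoter window on the minus strand, chr19:14835136-14835435, which runs from 250 bases before the start to 50 after it. The window is shown because it holds a glucocorticoid response element motif, the core ACANNNTGT with a G placed 2 bases before it and a C placed 2 bases after it, at 168 to 156 bases before the start. Both strands were searched, and the match is in capitals.
OR7A5 and OR7C1: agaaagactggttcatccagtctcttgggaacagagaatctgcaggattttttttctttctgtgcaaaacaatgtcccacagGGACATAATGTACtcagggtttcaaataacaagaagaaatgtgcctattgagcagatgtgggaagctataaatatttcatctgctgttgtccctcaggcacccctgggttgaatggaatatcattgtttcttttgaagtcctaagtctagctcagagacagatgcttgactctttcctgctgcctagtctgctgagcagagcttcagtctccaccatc
The full motif is in 106 of 27305 RefSeq promoters of the same length (0.388%) and the core alone in 1488 (5.45%). Among the 250 genes that limma called higher with dexamethasone in GRα cells, 187 matched a promoter, and 5 of these (2.67%) held the full motif and 16 (8.56%) the core. Promoters were counted by gene, so the window shared by OR7A5 and OR7C1 enters each count once for each gene. A match is a description of the letters and does not show a site in use.
OR7A5 had log2 values of 4.60, 4.44 and 4.30 with RU486, 5.32, 5.27 and 5.23 with dexamethasone and 4.65, 4.44 and 4.53 with vehicle, with RU486 and vehicle overlapping. OR7C1 had 5.00, 5.09 and 5.56 with RU486, 5.84, 5.87 and 5.80 with dexamethasone and 5.29, 5.44 and 5.42 with vehicle. RU486 replicate C of OR7C1 lay above all vehicle arrays and replicates A and B below them.

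**Figure D2:**
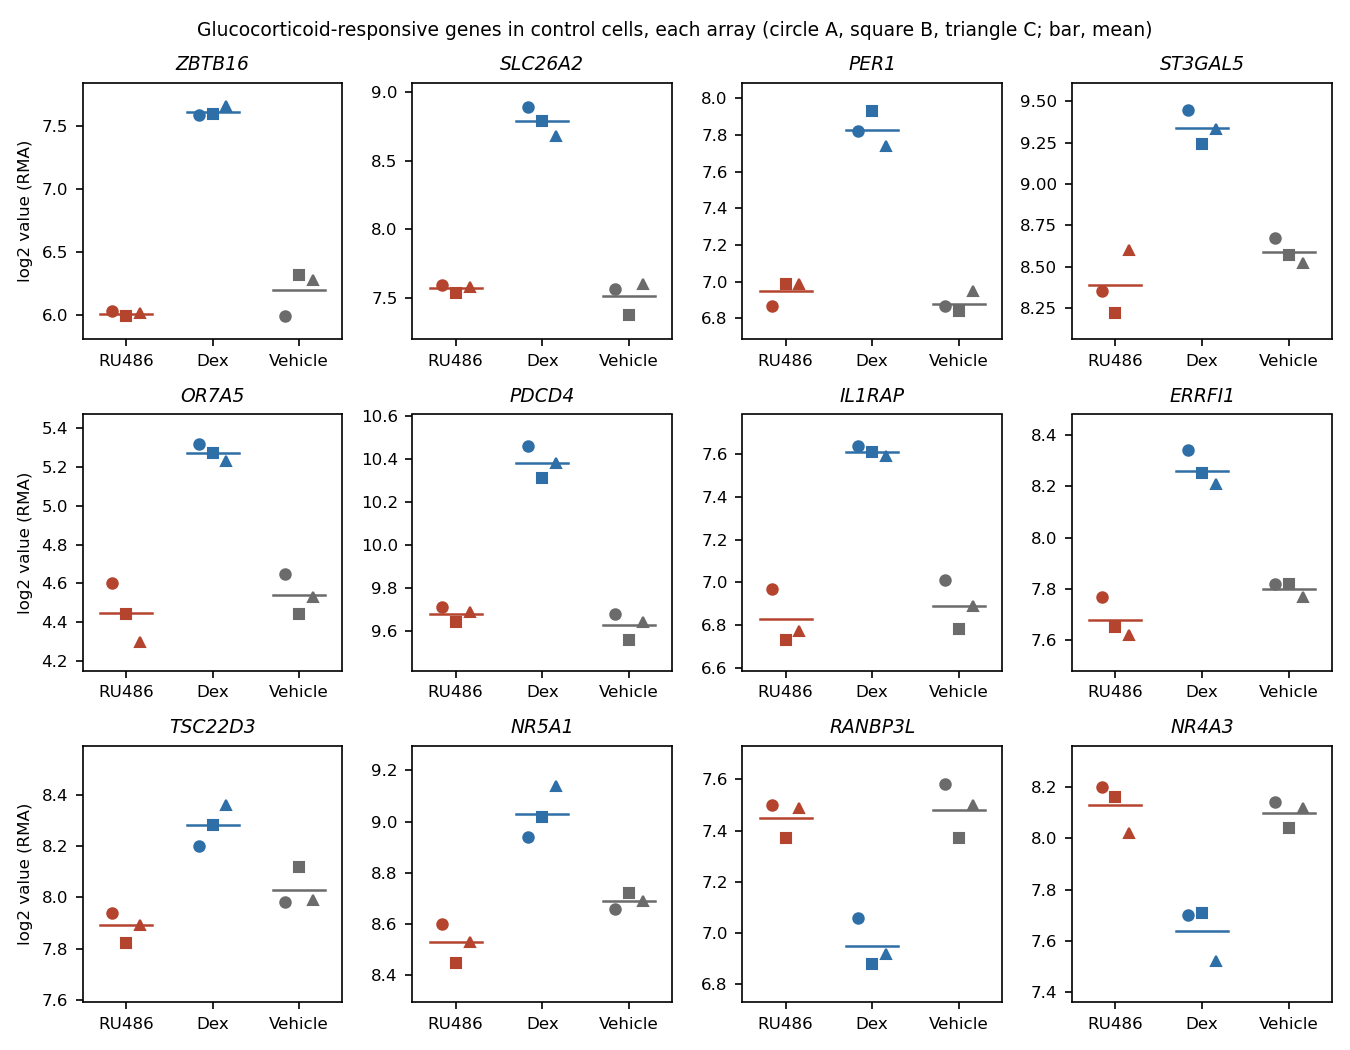
Log2 value (vertical axis, a separate range for each gene) of 12 glucocorticoid-responsive genes in every RU486, dexamethasone and vehicle array of control cells; circles, squares and triangles are replicates A, B and C and bars are means of 3 arrays. For ZBTB16 the dexamethasone arrays sit at 7.59 to 7.66, and the RU486 arrays at 5.99 to 6.03 lie with the vehicle arrays at 5.99 to 6.32.

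RANBP3L and NR4A3, named from the genes that dexamethasone lowered in control cells, overlapped between RU486 and vehicle. RANBP3L, a nuclear export factor, had 7.50, 7.37 and 7.49 with RU486, 7.06, 6.88 and 6.92 with dexamethasone and 7.58, 7.37 and 7.50 with vehicle. NR4A3, an orphan nuclear receptor of the immediate-early class, had 8.20, 8.16 and 8.02 with RU486, 7.70, 7.71 and 7.52 with dexamethasone and 8.14, 8.04 and 8.12 with vehicle. The RU486 arrays of both genes lay above all dexamethasone arrays. For NR4A3, RU486 replicates A and B lay above every vehicle array and replicate C below. The differences between RU486 and vehicle were −0.03 (−0.19 to 0.13) for RANBP3L and 0.02 (−0.17 to 0.22) for NR4A3.

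Over a list of 40 genes known to be induced by glucocorticoids in other tissues, 38 were measured and FKBP5 and BIRC3 are not analysed here. With RU486, 14 of the 38 lay above and 24 below their vehicle level, with 0 called by limma, 1 higher and 1 lower at an unadjusted p under 0.05, and a median difference of −0.034, against 0.001 over all genes. The mean level of the list was 7.15, 7.16 and 7.15 in the RU486 arrays, 7.29, 7.32 and 7.35 in the dexamethasone arrays and 7.16, 7.21 and 7.20 in the vehicle arrays. The 95% intervals of all 38 lay within ±0.5, as did those of 98.5% of all genes. Limma called 3 of the 38 higher with dexamethasone than with vehicle in control cells. The arrays did not overlap for 2 members higher with RU486 (5.26% of the list, against 5.21% of all genes) and 4 lower (10.5%, against 7.02%). The extremes were ANXA1 at 0.27 and PCK1, the gluconeogenic enzyme, at −0.20 ± 0.10.

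ANXA1, which encodes annexin A1, an inhibitor of inflammation, is induced by glucocorticoids in leukocytes. Its log2 values were 6.67, 6.79 and 6.46 with RU486, 6.20, 6.23 and 6.08 with dexamethasone and 6.37, 6.32 and 6.42 with vehicle. The 3 groups did not overlap, with RU486 highest and dexamethasone lowest, and the RU486 difference from vehicle of 0.27 ± 0.08 had an unadjusted p of 0.00382 and an adjusted p of 0.999 in limma. PDK4, an inhibitor of pyruvate dehydrogenase, had 11.69, 11.62 and 11.62 with RU486 and 11.59, 11.54 and 11.55 with vehicle, a difference of 0.08. The 4 members whose RU486 arrays all lay lower were GLUL, NFKBIA, PCK1 and TSC22D3. GLUL, the glutamine synthetase, averaged 8.02 ± 0.02 with RU486 and 8.20 ± 0.05 with vehicle (SD, n = 3 each), a difference of −0.18 ± 0.09 SE (unadjusted p = 0.0555 in limma). NFKBIA, the inhibitor of NF-κB, had 8.43, 8.31 and 8.45 with RU486 and 8.48, 8.53 and 8.54 with vehicle. Neither reached an adjusted p under 0.05. The remaining named targets were closer still: the differences were −0.07 for DUSP1, a MAP kinase phosphatase, −0.08 for KLF9, a Krüppel-like factor, −0.01 for the kinase SGK1 and 0.01 for MAOA, a monoamine oxidase.

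Of 20 genes that glucocorticoids repress in other tissues, 19 were measured, 11 above and 8 below 0, with a median of 0.016. Limma called 0, and 1 had an unadjusted p under 0.05. That gene was POMC, the precursor of ACTH, with 6.13, 6.06 and 6.10 under RU486 and 6.21, 6.19 and 6.32 under vehicle. The chemokines CXCL2 and CCL20 had the outermost differences of the list, −0.21 (−0.45 to 0.03) and 0.22 (−0.03 to 0.46), and both overlapped between the groups. The median of the list lay inside the middle 50% of all genes. Its mean level was 5.46, 5.45 and 5.45 in the RU486 arrays and 5.37, 5.47 and 5.46 in the vehicle arrays. The dexamethasone arrays, at 5.45 each, lay within the vehicle range, so the agonist did not lower the list's mean either. Whether these genes are expressed in these cells was not tested.

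**Figure D3:**
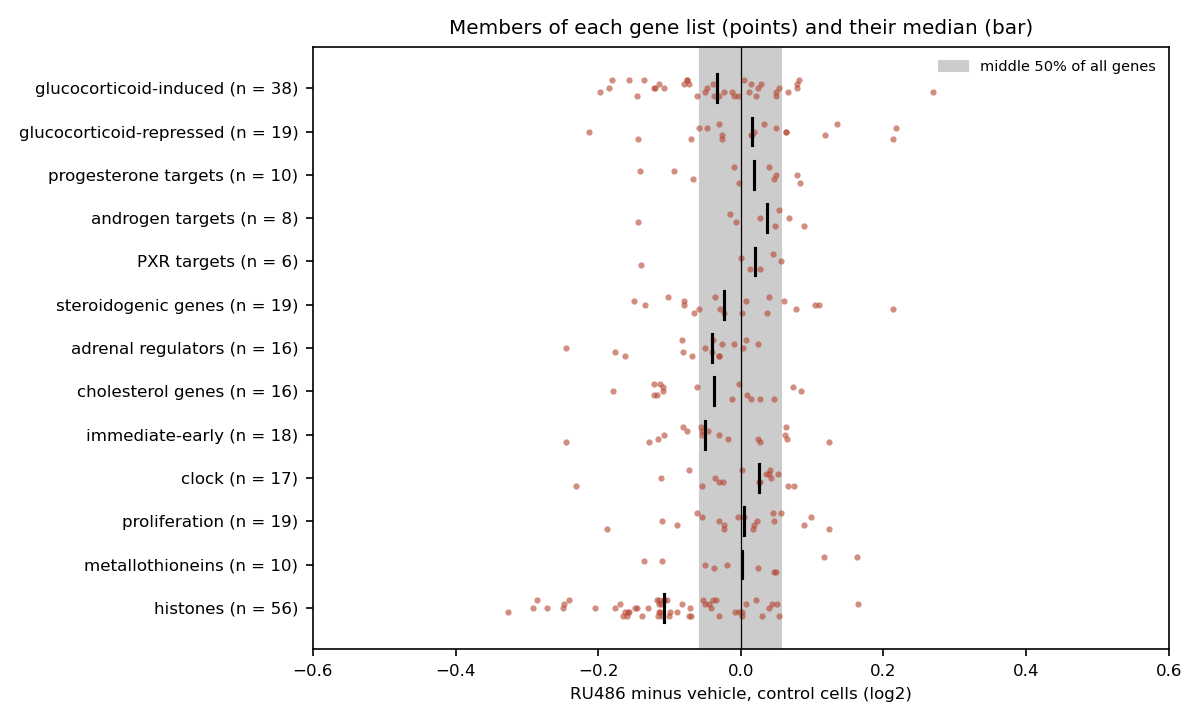
Log2 difference between RU486 and vehicle (horizontal axis) for every measured member of 13 gene lists (points) with the list's median (bar) and the middle 50% of all genes (grey band). The medians run from −0.107 for histone genes to 0.037 for androgen targets, and the other lists drawn lie inside the band from −0.057 to 0.056. Cell type marker lists are not drawn.

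A second set of targets came from the GRα cells, whose arrays are not part of the comparison of RU486 with vehicle in control cells. Dexamethasone raised 250 genes there (1.36% of those tested) and lowered 122 (0.662%) by limma. In the control cells with RU486, 121 of the 250 raised genes lay above and 129 below their vehicle level, with a median of −0.004 and a middle 50% from −0.065 to 0.041. Limma called 0 of them, and 5 were higher and 5 lower at an unadjusted p under 0.05. The shares over all genes were 1.41% higher and 1.97% lower. With dexamethasone against vehicle in control cells, limma called 33 of the 250 higher, among 39 of all 18417 genes. Their mean level was 7.54, 7.51 and 7.53 in the RU486 arrays, 7.77, 7.73 and 7.73 in the dexamethasone arrays and 7.55, 7.51 and 7.54 in the vehicle arrays of control cells. The RU486 and vehicle means overlapped, and both lay below every dexamethasone mean. For 246 of the 250 the 95% interval of the difference lay within ±0.5, as it did for 98.5% of all genes.

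The 122 genes that dexamethasone lowered in GRα cells were split in the same way. With RU486, 59 lay above and 63 below the vehicle level of control cells, with a median of −0.001 and 0 calls by limma. At an unadjusted p under 0.05, 3 were higher and 6 lower, against 1.41% and 1.97% of all genes. Their mean level was 7.30, 7.29 and 7.27 with RU486, 7.19, 7.19 and 7.18 with dexamethasone and 7.31, 7.28 and 7.30 with vehicle. Among the 10 strongest rises, 2 lay above and 8 below 0 with RU486, from −0.20 for ST3GAL5 to 0.07 for PER1, and none of the 10 had RU486 arrays apart from the vehicle arrays. Among the 10 strongest falls, 6 lay above and 4 below 0, from −0.16 to 0.12. Of these 10, 1 had RU486 arrays apart from the vehicle arrays. The strongest falls included GRAP, an adaptor of receptor signalling, at −0.16 (−0.46 to 0.14). They also included ID3, an inhibitor of helix-loop-helix transcription factors, at −0.03 (−0.33 to 0.27).

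**Figure D4:**
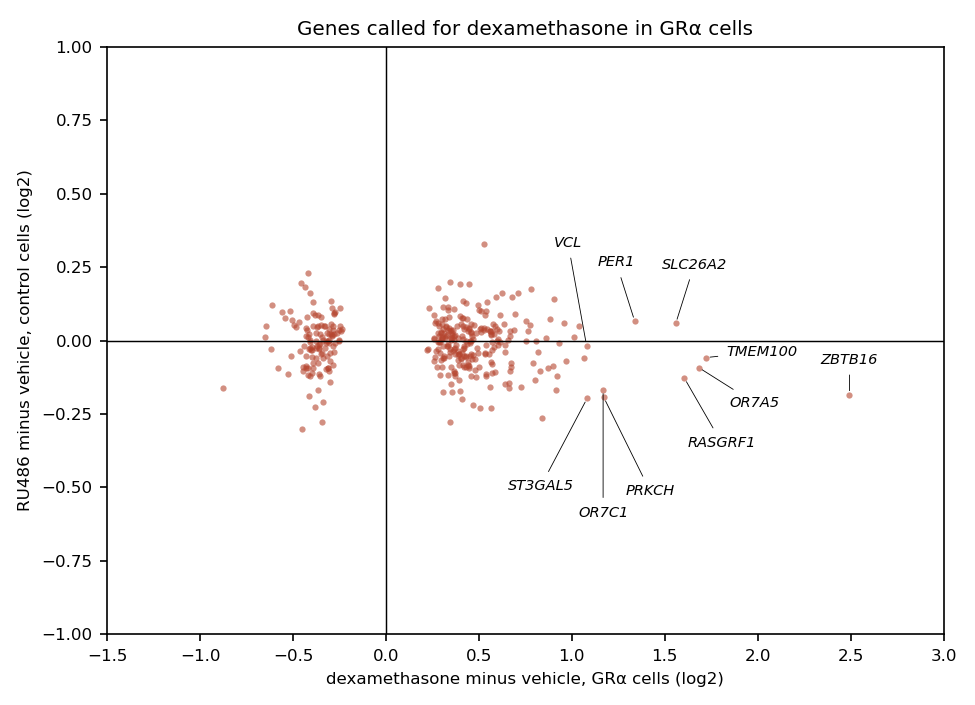
Each point is a gene that limma called for dexamethasone in GRα cells (250 raised, 122 lowered); the horizontal axis is the log2 difference of dexamethasone from vehicle in GRα cells and the vertical axis that of RU486 from vehicle in control cells. The points lie along 0 on the vertical axis over the whole horizontal range, with medians of −0.004 for raised and −0.001 for lowered genes.

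RU486 and dexamethasone, given at the same dose and for the same time, were compared directly in the control cells. This was the 1 pair of ligands compared. Limma called 67 genes (0.364% of 18417), of which 53 (0.288%) were lower and 14 (0.076%) higher with RU486 than with dexamethasone. ZBTB16 was lower with RU486 by a log2 difference of −1.60 ± 0.09 (adjusted p = 1.64e-08), SLC26A2 by −1.22 ± 0.07 (adjusted p = 2.08e-08) and PER1 by −0.88 ± 0.07 (adjusted p = 2.8e-06). ST3GAL5 differed by −0.95 (adjusted p = 5.26e-05), OR7A5 by −0.83 (adjusted p = 5.26e-05), IL1RAP by −0.79 (adjusted p = 0.000257) and PDCD4 by −0.70 (adjusted p = 8.22e-05) in limma. In each of these 7 genes all 3 RU486 arrays lay below all 3 dexamethasone arrays. RANBP3L was higher with RU486 by 0.50 (adjusted p = 0.00508), NR4A3 by 0.48 (adjusted p = 0.0216) and ANXA1 by 0.47 ± 0.08 (adjusted p = 0.0102) in limma. PPARGC1A, a coactivator of nuclear receptors, was higher with RU486 by 0.41 (adjusted p = 0.00525 in limma). The count of 67 was 29 to 39 without RU486 replicate A or B or any 1 of the dexamethasone arrays. It was 113 without vehicle replicate B of the GRα cells, which enters only through the estimate of spread and had the lowest array weight of the 17 arrays (0.19).

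Of the glucocorticoid-induced list, 5 of 38 were lower and 1 was higher with RU486 than with dexamethasone. The 5 were ZBTB16, PER1, ERRFI1 at −0.58, BCL6, a transcriptional repressor, at −0.41 and NFKBIA at −0.32, and the 1 was ANXA1. TSC22D3 differed by −0.39 (−0.63 to −0.15) and DUSP1 by −0.31 without a call (adjusted p = 0.115 for DUSP1 in limma). Of the 53 genes lower with RU486 than with dexamethasone in control cells, 45 were among the 250 that dexamethasone raised in GRα cells. Of the 14 higher ones, 8 were among the 122 that it lowered there. Of the same 53 genes, 34 were also called between dexamethasone and vehicle, a comparison that shares the dexamethasone arrays. Against vehicle, 44 of the 53 had a negative RU486 difference and 9 a positive one, from −0.26 to 0.07 with a median of −0.08. The choice of these genes used the same RU486 arrays, so their sign against vehicle is a description. The 95% interval of the RU486 difference from vehicle held 0 for 63 of the 67 genes, and the other 4 were ZBTB16, CACNA2D3, ANKDD1B and ANXA1.

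**Figure D5:**
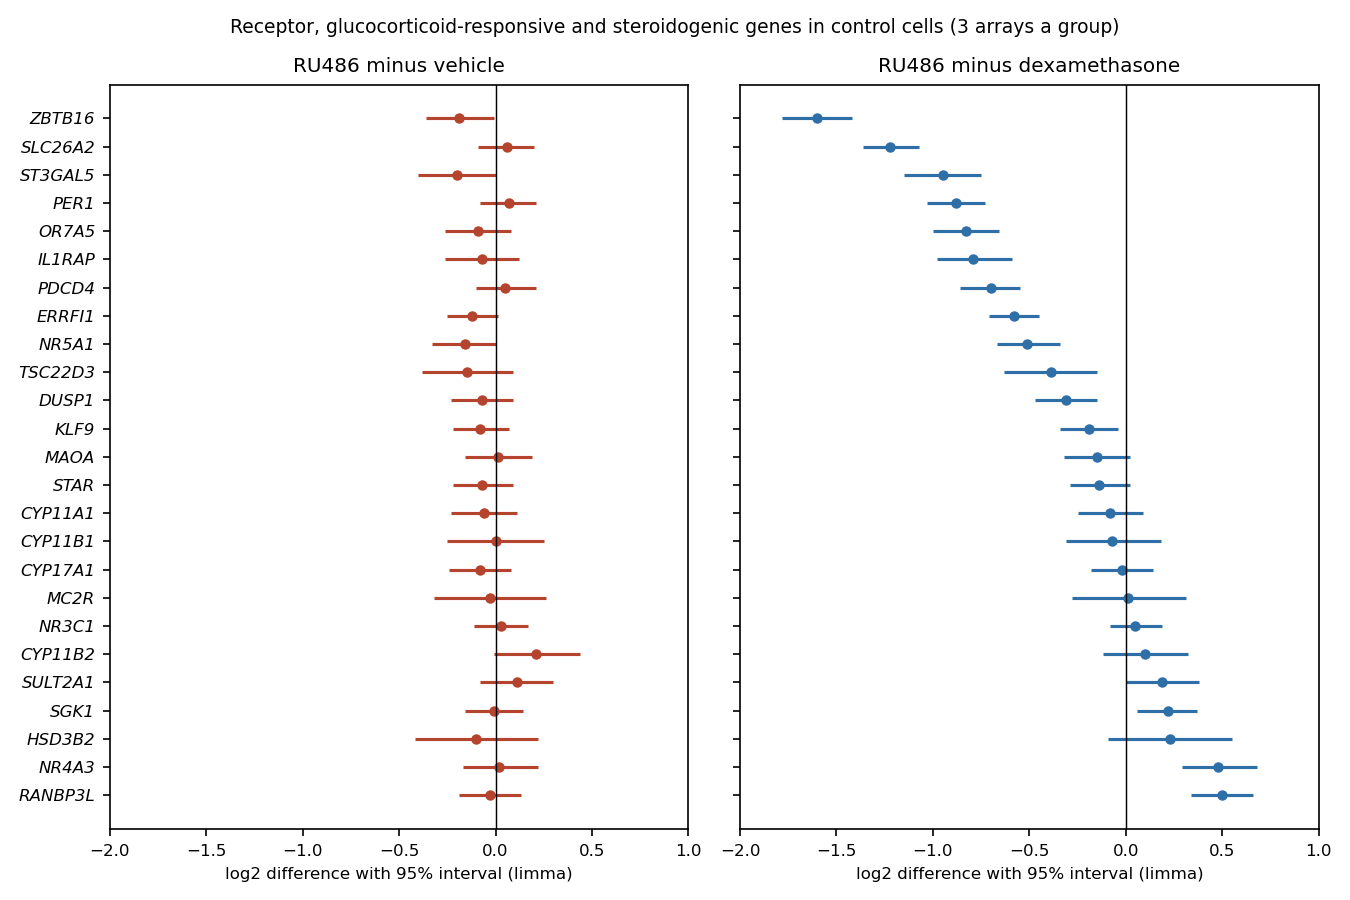
Log2 differences with 95% limma intervals (horizontal axis) of 25 receptor, glucocorticoid-responsive and steroidogenic genes in control cells, RU486 minus vehicle on the left and RU486 minus dexamethasone on the right, 3 arrays a group. All 25 intervals against vehicle lie within ±0.5, as do those of 98.5% of all genes. The differences from dexamethasone run from −1.60 for ZBTB16 to 0.50 for RANBP3L.

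Steroid synthesis begins with cholesterol delivery by STAR and the cleavage of its side chain by CYP11A1, and the later enzymes decide between cortisol, androgens and aldosterone. None of the 19 measured steroidogenic genes was called by limma between RU486 and vehicle, and none had an unadjusted p under 0.05. All 19 intervals lay within ±0.5, as did those of 98.5% of all genes. STAR had log2 values of 10.27, 10.22 and 10.28 with RU486 and 10.38, 10.32 and 10.26 with vehicle. CYP11A1 had 10.14, 9.96 and 10.19 with RU486 and 10.24, 10.17 and 10.06 with vehicle. CYP17A1, which leads to cortisol and androgens, had 9.50, 9.37 and 9.50 with RU486 and 9.65, 9.50 and 9.47 with vehicle. These 3 genes overlapped between the groups, with differences of −0.07, −0.06 and −0.08. HSD3B2, the dehydrogenase of the adrenal and gonads, had 7.18, 6.82 and 7.55 with RU486 and 7.28, 7.31 and 7.27 with vehicle, so its RU486 arrays spread to both sides of tight vehicle arrays.

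CYP11B2, the aldosterone synthase, had 5.37, 5.54 and 5.52 with RU486 and 5.04, 5.38 and 5.36 with vehicle, and CYP11B1, the cortisol-forming enzyme, had 5.96, 6.27 and 6.22 with RU486 and 5.97, 6.18 and 6.29 with vehicle. The difference of CYP11B2 was 0.21 ± 0.11 (−0.01 to 0.44, unadjusted p = 0.0591 in limma) and that of CYP11B1 was 0.00 ± 0.12. The CYP11B genes are close copies of each other, as are HSD3B1 and HSD3B2, and whether their probe sets keep them apart was not tested. SULT2A1, which makes the sulfated androgen DHEAS, had 9.74, 9.72 and 9.67 with RU486 and 9.74, 9.49 and 9.58 with vehicle, a difference of 0.11 (−0.08 to 0.30). FDX1, the electron donor of the mitochondrial enzymes, had 8.67, 8.57 and 8.53 with RU486 and 8.51 on each vehicle array. HSD11B2, which inactivates cortisol, had 5.95, 5.88 and 5.77 with RU486 and 6.04, 6.06 and 5.95 with vehicle, meeting at 5.95 after rounding. FDX1 and HSD11B2 were the only members whose groups did not overlap. That is 1 of 19 in each direction (5.26%), against 5.21% of all genes higher and 7.02% lower, and their unadjusted p-values in limma were 0.267 and 0.12.

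NR5A1 encodes SF-1, the transcription factor that directs the steroidogenic genes. Its log2 values were 8.60, 8.45 and 8.53 with RU486, 8.94, 9.02 and 9.14 with dexamethasone and 8.66, 8.72 and 8.69 with vehicle. The 3 groups did not overlap, with RU486 lowest and dexamethasone highest. RU486 differed from dexamethasone by −0.51 (adjusted p = 0.00524) and from vehicle by −0.16 ± 0.08 (unadjusted p = 0.0543, adjusted p = 0.999) in limma. Of 16 measured regulators of the adrenal cortex, 3 lay above and 13 below 0 with RU486, with a median of −0.040, 0 calls by limma and 1 gene at an unadjusted p under 0.05. That gene was NR4A2, an orphan receptor that responds quickly to stimuli, with 5.52, 5.21 and 5.23 under RU486 and 5.58, 5.49 and 5.62 under vehicle. MC2R, the ACTH receptor, had 5.39, 5.31 and 5.70 with RU486 and 5.67, 5.53 and 5.29 with vehicle, a difference of −0.03 (−0.32 to 0.26).

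Other pathways that RU486 could reach gave no call. Of 10 progesterone targets 5 lay above and 5 below 0, of 8 androgen targets 5 and 3, and of 6 PXR targets 5 and 1, with 0 calls by limma, 0 genes at an unadjusted p under 0.05 and no gene whose groups were apart. CYP3A4, the main hepatic target of PXR, had 4.19, 4.19 and 4.43 with RU486 and 4.16, 4.81 and 4.25 with vehicle, values near the low end of the scale. Of 18 immediate-early genes 6 lay above and 12 below 0 (median −0.050), with 0 calls by limma and 2 lower at an unadjusted p under 0.05. These were NR4A2 and KLF6, a zinc finger factor with 7.75, 7.74 and 7.71 under RU486 and 7.85, 7.89 and 7.85 under vehicle. Of 16 genes of cholesterol synthesis and uptake 6 lay above and 10 below 0 (median −0.038), and of 17 clock genes 10 and 7 (median 0.026), with 0 calls by limma and 0 genes at an unadjusted p under 0.05 in both lists. TEF, a clock output factor, had the widest difference of the clock list, with 6.84, 6.77 and 6.75 under RU486 and 7.10, 7.05 and 6.90 under vehicle (−0.23, −0.51 to 0.04). Proliferation genes (19 measured, median 0.005), metallothionein genes (10, median 0.002), receptor coregulators (12, median −0.001) and stress-response genes (16, median −0.020) had medians inside the middle 50% of all genes, with 0 calls by limma and 1 gene, a proliferation gene, at an unadjusted p under 0.05.

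None of the genes with the widest separation between RU486 and vehicle arrays was called by limma, and the lowest adjusted p among them was 0.999. They are named by the size of a difference whose arrays did not overlap, a choice that fixes their direction and favours low p-values. Of all genes, 3.37% had an unadjusted p under 0.05 in limma. Of the 10 widest positive differences 9 had an unadjusted p under 0.05, and of the 10 widest negative ones, which hold 9 distinct measurements, all 9 did. RPL23P8, a ribosomal protein pseudogene, had log2 values of 7.09, 6.82 and 6.69 with RU486 and 6.61, 6.06 and 6.08 with vehicle, the widest difference at 0.62. CES1, a carboxylesterase that hydrolyses esters of lipids and drugs, had 6.49, 6.65 and 6.60 with RU486, 6.54, 6.84 and 6.80 with dexamethasone and 6.06, 6.30 and 5.98 with vehicle. Both ligands stood above vehicle for CES1, by 0.47 ± 0.12 for RU486 (unadjusted p = 0.00103, adjusted p = 0.999) and 0.61 ± 0.12 for dexamethasone (adjusted p = 0.033) in limma. The 2 differences share the vehicle arrays, and whether the probe set tells CES1 from its pseudogene copy was not tested. RU486 and dexamethasone differed from each other in CES1 by −0.15 (−0.40 to 0.10). CFB, complement factor B, had the lowest unadjusted p of all genes (0.000142 in limma), with 5.97, 6.20 and 6.13 under RU486 and 5.60, 5.75 and 5.80 under vehicle. IVL, the cornified envelope protein involucrin, had 6.02, 6.16 and 5.99 with RU486 and 5.53, 5.81 and 5.71 with vehicle.

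Among the widest negative differences, LINC02961, a noncoding RNA, had 4.54, 4.94 and 5.00 with RU486 and 5.10, 5.30 and 5.28 with vehicle (−0.40). NODAL, a TGF-β family ligand of early development, had 4.91, 5.02 and 4.50 with RU486 and 5.08, 5.25 and 5.08 with vehicle (−0.33). OSR1, a zinc finger factor of early kidney and adrenal mesoderm, had 5.22, 5.34 and 5.17 with RU486 and 5.43, 5.66 and 5.58 with vehicle (−0.31). The histone genes H4C14 and H4C15 carried identical values, 8.69, 8.45 and 8.64 with RU486 and 8.98, 9.03 and 8.76 with vehicle, and count as 1 measurement.

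The GRα cells gave a second look at RU486, and they share no array with the control cells. There limma also called 0 genes between RU486 and vehicle, with 1572 (8.54%) at an unadjusted p under 0.05, where an even spread would put 921, and a lowest adjusted p of 0.144. A test of whether the RU486 effect differed between the lines gave 0 calls by limma (0% of genes), 745 genes at an unadjusted p under 0.05 and a lowest adjusted p of 0.67. Across the 18417 genes, which are not independent of each other, the RU486 differences of control and GRα cells correlated at r = 0.162 (Spearman 0.174). Of the 10 widest positive differences in control cells 6 had the same sign in GRα cells, and of the 9 distinct widest negative ones 4. RPL23P8 was 0.62 in control and 0.47 in GRα cells, OSR1 −0.31 and −0.30, CES1 0.47 and 0.15, and CFB 0.38 and −0.03. STEAP1B, a relative of the metalloreductase STEAP1, differed in sign, at 0.46 in control and −0.57 in GRα cells, and the difference between lines had an adjusted p of 0.670 in limma. NR5A1 also differed in sign, at −0.16 in control and 0.21 in GRα cells, with a difference between lines of −0.38 ± 0.12 (adjusted p = 0.999 in limma). ZBTB16 was −0.19 in control and −0.01 in GRα cells, SLC26A2 0.06 and 0.12, and PER1 0.07 and 0.04.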

How the data were processed

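The deposited values are log2 levels of 29153 probe sets. The authors used RMA and limma, per the submitters' processing notes. RMA subtracts background, gives all arrays the same distribution and sums up the probes of a set, so a change shared by most RNAs would not show. Tool versions and the build were not given in the sources used here. Per the labels, 1 array of GRα cells with RU486 failed quality control, and its column is empty. No arrays held identical values. The number of arrays limits the precision.

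Probe sets with 1 symbol (19460, of which 19429 were updated through a RefSeq table, GRCh38.p14) gave 18417 genes, with the probe set of the highest mean for the 769 genes with several. Probe sets with several symbols (1754) or none (7939) were left out. FKBP5, BIRC3 and some other listed genes have no probe set of their own here.

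All comparisons are contrasts in a single fit with limma 3.58.1 (R 4.3.3) to 17 arrays, with a mean per group, two-sided, with Benjamini-Hochberg adjustment over 18417 genes and a threshold of 0.05. The fit was tested on simulated data. The members and gene lists were chosen with earlier results of these data known. Named genes are 25 receptor targets and steroidogenic genes, the 10 widest differences each way whose arrays do not overlap, the 10 strongest dexamethasone rises and falls in GRα cells, the extremes of each list, and members of the steroid receptor, steroidogenic and glucocorticoid-induced lists. CACNA2D3, ANKDD1B, STUB1 and POMC fall outside this rule and were chosen after their values were seen. Alternatives were other normalizations, filters, options of the fit, gene units, thresholds, the replicate letter as a block and leaving out each array.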

Additional observations from a re-analysis of the deposited data

How the results depend on the processing

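RU486 against vehicle in control cells gave 0 calls by limma under all 31 alternatives, with the lowest adjusted p, 0.186, without vehicle replicate A. The difference between lines gave 0 under all 30 of its alternatives (lowest adjusted p 0.219). The 67 genes between RU486 and dexamethasone became 105 with a trended prior, 214 with array weights and 37 at an adjusted p under 0.01. Leaving out 1 array gave 29 to 113. The lowest was without RU486 replicate B, and the highest was without vehicle replicate B of the GRα cells, an alternative chosen after seeing the data. The count was 33 without RU486 replicate A, and 37, 39 and 32 without dexamethasone replicates A, B and C. These fits hold fewer arrays; no other cause of the moved counts was tested. Deviations of RU486 and vehicle arrays of the same letter correlated at 0.19 (A), 0.13 (B) and 0.02 (C). Those of different letters correlated from −0.20 (RU486 B, vehicle A) to 0.10 (RU486 B, vehicle C). Whether the letters pair the samples cannot be told from these few values. With a replicate block, RU486 against vehicle and the line difference kept 0 calls and RU486 against dexamethasone had 55, or 28 with only those groups. No core gene gained a call under any alternative, and ZBTB16 ranged from −0.29 to −0.12. Some list medians turned their sign without 1 array: the steroidogenic median of −0.024 was 0.017 without vehicle replicate C and 0.012 without RU486 replicate B. The median of glucocorticoid-induced genes stayed between −0.046 and −0.017.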

Other observations

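Replication-dependent histone genes, which are transcribed in S phase, lay mostly below their vehicle level. Of 56 distinct measurements, 46 were below and 10 above 0 with RU486, with a median of −0.107 against 0.001 over all genes. Limma called 0, and 2 had an unadjusted p under 0.05, both lower. The mean level was 7.90, 7.71 and 7.88 in RU486 replicates A, B and C and 8.03, 7.96 and 7.81 in vehicle replicates A, B and C, so the groups overlapped. These genes are close copies of each other and their probe sets are not independent. Small nucleolar RNAs, with 176 measured, were split 92 above and 84 below 0, with a median of 0.013 and 0 calls by limma. Of them, 6 were higher and 4 lower at an unadjusted p under 0.05. Over all genes, 1.41% were higher and 1.97% lower at that p.

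Of 7 epithelial markers, 5 lay above and 2 below 0 with RU486, with a median of 0.048, 0 calls by limma, and 1 higher and 1 lower at an unadjusted p under 0.05. These were the keratins KRT8 and KRT18, the extremes of the list, and the other 5 ranged from −0.003 for KRT14 to 0.125 for EPCAM. KRT8 had 6.96, 6.98 and 7.01 with RU486 and 6.69, 6.68 and 6.77 with vehicle (unadjusted p = 0.00914 in limma). KRT18 had 8.21, 8.03 and 8.20 with RU486 and 8.38, 8.54 and 8.25 with vehicle (unadjusted p = 0.0432 in limma). Neither was called.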
